A study of Mus musculus with 18 samples.

Results

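Testes of mice that received STZ and a faecal microbiota transplant labelled control (STZ + control-FMT) were compared with testes of mice that received STZ alone. STZ is read here as streptozotocin, a compound that kills pancreatic beta cells and is used to make rodents diabetic. The tissue was whole testis, and the animals of both groups were 10 weeks old and of the outbred ICR strain. Each group held 3 libraries, so the comparison used 6 of the 18 libraries of the series, and all 20985 genes of the deposited table entered it. The test covered the 14164 genes that reached 1 FPKM (the unit is explained below) in 3 or more of the 18 libraries. Untreated control mice, mice given STZ and a transplant labelled AOS 10 mg/kg (STZ + AOS-FMT) and mice given STZ and alginate oligosaccharide at 10 mg/kg (STZ + AOS), each with 3 libraries, served as references, and the remaining 3 libraries came from mice given alginate oligosaccharide alone. The labels give neither the STZ dose, the transplant schedule nor the blood glucose of any animal, and no group received STZ with a sham transplant, so the transplant cannot be told apart from its procedure. Nor do they say whether replicate libraries are different animals. Each p-value therefore reflects how far these particular libraries scatter, which may be technical.

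In the seminiferous tubule, Sertoli cells nurse germ cells from spermatogonia through meiosis to round and then elongating spermatids, and tight junctions between them form the blood-testis barrier. The interstitium around the tubules holds Leydig cells, which make testosterone, together with vessels, fibroblasts and resident macrophages. A whole testis reports all of these at once, and most of its RNA is of germ cell origin. The epididymis, a duct attached to the testis, has its own secretory transcripts (defensins, lipocalins, cysteine-rich secretory proteins), which are used here as markers of another tissue.

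The values are taken as FPKM (fragments scaled to transcript length and library size), and differences are on the log2(FPKM + 1) scale, which understates the change of low genes. Column sums ran from 561038 to 622169 FPKM. A relative depth of the 18 libraries, read from the step between low values, ran from 0.918 to 1.01. Only genes whose low values lay within 0.15 of whole multiples of their smallest value were used for it. That choice holds the figure near 1, so it does not measure whether the depths were alike. The number of reads is not known, so no counting interval is given. Replicates of the STZ + control-FMT group correlated at 0.9904 to 0.9921 and those of STZ at 0.9782 to 0.9903, with STZ replicate 1 the farthest from the other STZ libraries. As a check of the labelled tissue, 5 protamine and transition protein genes of spermatids took 6.92 to 8.10% of the sum in the 3 STZ + control-FMT libraries, against 3.55 to 6.57% in STZ and 7.01 to 7.85% in control.

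The 3 STZ + control-FMT libraries stood apart from each other in transcripts of other tissues. Of the 53 epididymal genes on the list, 45 were below 1 FPKM in at least 1 of the 18 libraries, and their summed level was 36.3, 446.4 and 1380 FPKM in STZ + control-FMT replicates 1, 2 and 3. It was 33.4, 8.12 and 11.8 FPKM in STZ, 10.8, 5.51 and 294.0 FPKM in control, and 6.27 to 7.23 FPKM in STZ + AOS-FMT. Of these 45 genes, 14, 17 and 30 were at 1 FPKM or more in the 3 transplant libraries, 8, 1 and 4 in STZ, and 3, 0 and 16 in control. The 6 haemoglobin genes summed to 811.6, 371.8 and 430.7 FPKM in STZ + control-FMT, 69.2, 586.8 and 250.5 FPKM in STZ and 136.6 to 169.5 FPKM in control. Their part in the results below was not tested beyond the values without these libraries that are given beside the results.

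Against STZ alone, 7257 of the 14164 genes tested passed an adjusted p of 0.05 (51.2%; limma with Benjamini-Hochberg adjustment, two-sided), and 8127 did at an unadjusted p under 0.05. Of these, 5645 were lower with the transplant (39.9% of genes tested) and 1612 were higher (11.4%). Decreases were the larger changes: 586 genes were lower by at least 1 on the log2 scale and 22 were higher by that much. The 3 and 3 libraries did not overlap for 6970 of all genes tested (49.2%), among them 4952 of the lower and 1187 of the higher genes. Statements below that libraries did not overlap with STZ are to be read against this share. The median difference over all genes was −0.15 on the deposited scale. It was 0.05 after quantile normalization and 0.16 after median centring, so the balance of directions depends on the scaling. After quantile normalization 3706 genes were higher and 3049 lower, and after median centring 5936 were higher and 2512 lower, so the share of calls that were higher was 22.2% on the deposited scale, 54.9% and 70.3%. With only the 6 libraries of these groups in the model, 430 were higher and 3754 lower. List medians below on the deposited scale are to be read against the median of −0.15 for all genes. Counts of lower and higher members on that scale are to be read against the 39.9% and 11.4% of all genes. Counts and medians under another setting have that setting's own background, such as 5936 higher genes of 14164 and a median of 0.16 after median centring.

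**Figure D1:**
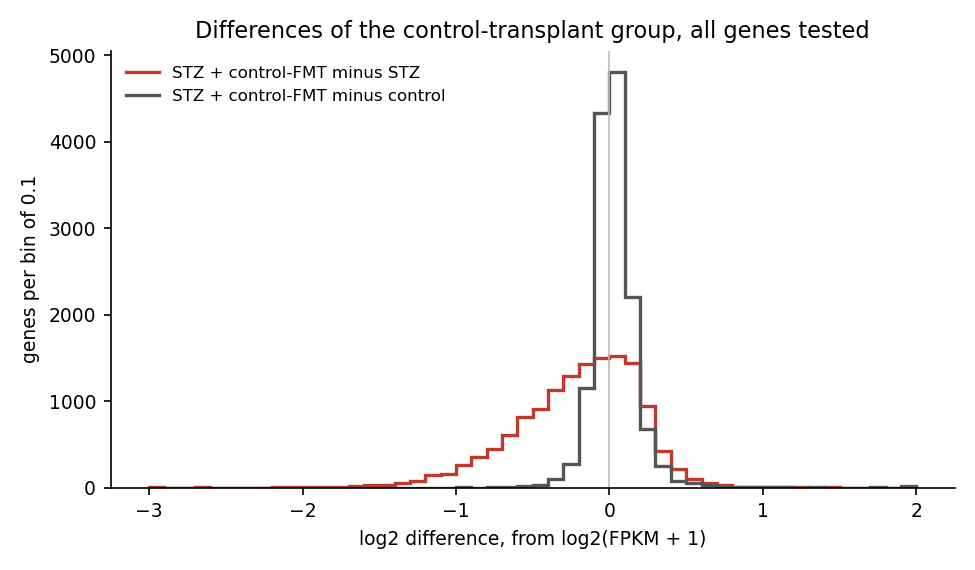
Number of genes (vertical axis) in bins of 0.1 of the log2 difference (horizontal axis) for STZ + control-FMT minus STZ (red) and minus control (grey), over the 14164 genes tested, with genes beyond the axis placed in the end bins. The differences from STZ have a long tail to the left and a median of −0.15, while those from control form a narrow peak with a median of 0.02.

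No gene passed the test against untreated control (0 of 14164, 0.0%; limma, 883 at an unadjusted p under 0.05). For 97.4% of genes the 95% interval of that difference lay within 1 on the log2 scale, and the median difference was 0.02. The 3 and 3 libraries did not overlap for 16.3% of genes, although none was called. The 1612 genes that were higher than in STZ had a median difference of 0.28 from STZ and of 0.02 from control. The 5645 lower genes had a median of −0.52 from STZ and of 0.03 from control. Both comparisons use the same STZ + control-FMT libraries, so these medians are set side by side as a description. A difference that misses the threshold with 3 against 3 libraries does not show that the levels are equal.

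The largest decrease was in Spp1 (chromosome 5, 104435111 to 104441053, GRCm38), which encodes osteopontin, a secreted phosphoprotein of bone, macrophages and injured tissue. Its level was 1.19, 1.53 and 3.32 FPKM in STZ + control-FMT, 48.6, 35.1 and 85.3 FPKM in STZ, and 2.90, 2.29 and 2.60 FPKM in control. Every STZ library lay above every library of the other groups named, which for the transplant group was required by the rule that picked the gene. The difference from STZ was −4.22 (SE 0.29, adjusted p = 7.2e-08 by limma). Bpifa2, a gene of a secreted salivary-type protein, was at 0.08, 0.08 and 0.16 FPKM against 12.8, 31.9 and 10.1 FPKM in STZ (−3.95, SE 0.31). The gene 4930486L24Rik was at 0.51, 0.62 and 0.31 FPKM against 20.3, 22.4 and 12.3 FPKM (−3.67). Serpina3n, an acute-phase inhibitor of serine proteases, was at 2.74, 4.60 and 3.68 FPKM against 31.5, 82.7 and 50.1 FPKM (−3.49, SE 0.36).

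The next decreases were in Timp1, an inhibitor of matrix metalloproteinases (−3.03), Gpnmb, a glycoprotein gene of lipid-laden macrophages (−3.02), Ly6d (−3.0), Lrg1, a leucine-rich glycoprotein of the acute phase (−2.93), Itih3, an inter-alpha-trypsin inhibitor heavy chain (−2.72), and C3, the central complement component (−2.68). Timp1 was at 2.86, 2.44 and 1.31 FPKM with the transplant and at 12.6, 43.0 and 27.1 FPKM in STZ. C3 was at 5.16, 7.40 and 10.1 FPKM and at 24.3, 82.6 and 70.6 FPKM. STZ replicate 1 was the lowest STZ library in Timp1, Lrg1, Serpina3n, Itih3 and C3. The rule that picked these 10 genes required the 3 and 3 libraries not to overlap. That every STZ library lay above all 3 transplant libraries is therefore not a result. Ly6d rested on STZ replicates 2 and 3 (21.2 and 32.2 FPKM, against 1.07 FPKM in replicate 1), and it was the one gene of these 10 that was not called with only the 6 libraries in the model. With STZ + control-FMT replicate 1 as the only library of its group, the other 9 decreases were also called.

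**Figure D2:**
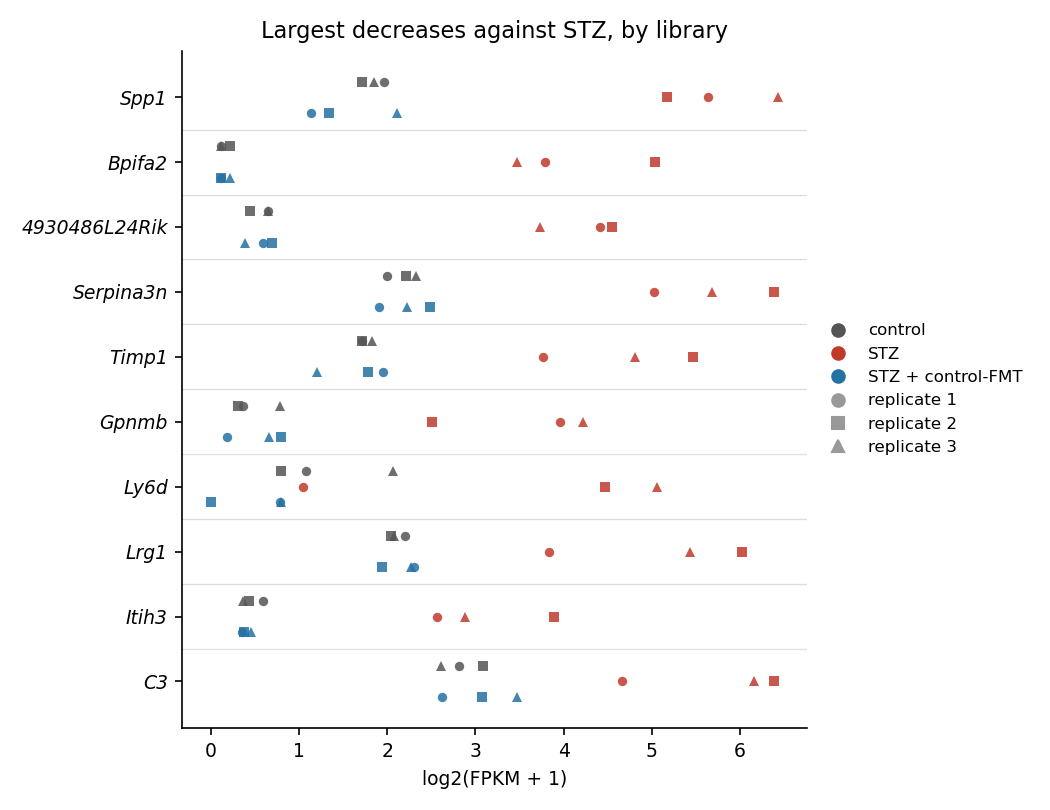
Level of the 10 genes with the largest decrease, as log2(FPKM + 1) on the horizontal axis, in each library of control (grey), STZ (red) and STZ + control-FMT (blue); symbols mark the replicate. The STZ libraries lie to the right of the other 6 for every gene except Ly6d, whose first STZ library, at 1.07 FPKM, lies among them. The rule that picked these genes required the STZ and STZ + control-FMT libraries not to overlap.

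Genes of Sertoli cells were lower with the transplant almost throughout. Of 32 such genes measured, 31 were tested, of which 26 fell and 0 rose (background 39.9% lower), with a list median of −0.92 against −0.15 for all genes. In whole tissue, fewer cells of a type and less RNA per cell cannot be told apart. Clu encodes clusterin, a chaperone-like glycoprotein secreted by Sertoli cells, and was at 479.0, 509.4 and 540.0 FPKM with the transplant against 1209, 1545 and 1474 FPKM in STZ (−1.46, SE 0.08, adjusted p = 7.8e-09). Cldn11, the claudin of the Sertoli tight junction, was at 35.4, 35.3 and 38.1 FPKM against 93.9, 124.4 and 110.3 FPKM (−1.56, SE 0.08). Wt1, a transcription factor needed to keep Sertoli identity, was at 10.6, 11.4 and 11.8 FPKM against 25.0, 28.8 and 26.95 FPKM (−1.18). None of these 3 genes had overlapping libraries. Sox9, the testis-determining transcription factor, fell by 1.23 and Vim, the intermediate filament gene of Sertoli and other mesenchymal cells, by 1.78. The 5 members that did not pass were Abcg2 (0.09), Defb45 (−0.56), Cst9 (−0.28), Ptgds (−0.07) and Krt18 (0.10). The list median relative to the control mean was 0.74, 1.27 and 1.21 in the 3 STZ libraries and 0.05, 0.08 and 0.17 in the transplant libraries.

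Blood-testis barrier genes moved with them. Of 22 such genes measured, 20 were tested, of which 15 fell and 2 rose (median −0.67). F11r, a junctional adhesion molecule, fell by 1.14 (6.15, 7.18 and 6.88 against 15.1, 16.3 and 16.6 FPKM), Cgn (cingulin, a tight junction scaffold) by 1.14 and Vcl (vinculin) by 0.97. The exceptions were 2 genes that rose: Cldn3, a claudin of newly formed barrier junctions, was at 0.60 and the nectin gene Nectin3 at 0.18, both named after their values were seen. Nectin3 was not called after quantile normalization, nor without any single library of these groups other than STZ replicate 1. Among 21 tested genes of retinoic acid handling 13 fell and 0 rose (median −0.52), or 8 fell after quantile normalization and 8 after median centring. Stra6, the retinol uptake receptor, fell by 1.24.

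Genes of late germ cells were higher. All 31 elongating spermatid genes measured were tested, and all 31 rose on the deposited scale (background 11.4% higher), with a median of 0.51. This count was 8 with only the 6 libraries in the model, 23 after quantile normalization, and 18 with STZ + control-FMT replicate 1 as the only library of its group. Prm2, a protamine that replaces histones in condensing sperm chromatin, was at 11126, 10141 and 13013 FPKM with the transplant, 8555, 4562 and 5827 FPKM in STZ, and 12848, 10130 and 11349 FPKM in control. The transplant and STZ libraries did not overlap, and the difference was 0.90 (SE 0.18, adjusted p = 0.00095). Prm1 was at 13793, 12976 and 14591 FPKM against 11962, 5668 and 8053 FPKM (0.75, SE 0.18, adjusted p = 0.0027), a call that was lost after quantile normalization and with only the 6 libraries. Tnp1, a transition protein gene, was at 7178, 5959 and 6917 FPKM against 5885, 3178 and 4681 FPKM (0.59), a call lost with only the 6 libraries. Smcp, a protein of the sperm mitochondrial capsule, rose by 0.56 and Aldoart1, a sperm-specific aldolase, by 0.37, and both calls held in all settings run. STZ replicate 1 lay nearest to control, with an elongating spermatid list median of −0.09 relative to control against −0.83 and −0.54 in STZ replicates 2 and 3.

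Round spermatid genes rose by less. Of 30 tested, 20 rose and 0 fell (median 0.20), but only 11 rose without STZ replicate 3, 2 with only the 6 libraries and 4 with STZ + control-FMT replicate 1 alone in its group. Tssk3, a testis-specific serine kinase, was at 183.7, 184.5 and 198.3 FPKM against 171.9, 109.2 and 122.4 FPKM (0.51, SE 0.11, adjusted p = 0.0011). Izumo1, the sperm protein that binds the egg, was at 69.2, 70.4 and 70.1 FPKM against 57.6, 64.5 and 54.8 FPKM (0.25). Of 38 sperm motility genes 21 rose and 0 fell (median 0.19), or 8 rose without STZ replicate 3, 12 without STZ + control-FMT replicate 1 and 2 with only the 6 libraries. Adcy10, the soluble adenylyl cyclase of sperm, was at 0.33.

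Earlier stages depended on the scaling. Of 39 tested meiotic genes 7 rose and 10 fell on the deposited scale (median −0.05), but 23 rose and 0 fell after median centring (median 0.26). The count that rose was 2 without STZ replicate 3, 4 without STZ replicate 2, and 3 or 4 without STZ + control-FMT replicate 2 or 3. Without STZ replicate 1, 15 meiotic genes fell, and with only the 6 libraries 2 rose and 6 fell. Ccna1, the cyclin of late spermatocytes, rose by 0.50, and Sycp3, a synaptonemal complex gene, was at 173.3, 181.8 and 149.1 FPKM against 177.0, 189.3 and 217.8 FPKM (−0.21, adjusted p = 0.064). Of 23 spermatogonial genes measured, 18 were tested, of which 12 fell and 1 rose (median −0.40), and 4 fell and 2 rose under either other scaling. Stra8, the gate to meiosis that retinoic acid induces, was at 10.2, 9.40 and 8.77 FPKM against 18.2, 18.2 and 22.4 FPKM (−0.97, SE 0.15, adjusted p = 0.00012), with no overlap. Uchl1, a ubiquitin hydrolase of spermatogonia, fell by 0.85. Dmrtb1, which times the switch from mitosis to meiosis, was the member that rose (0.36).

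**Figure D3:**
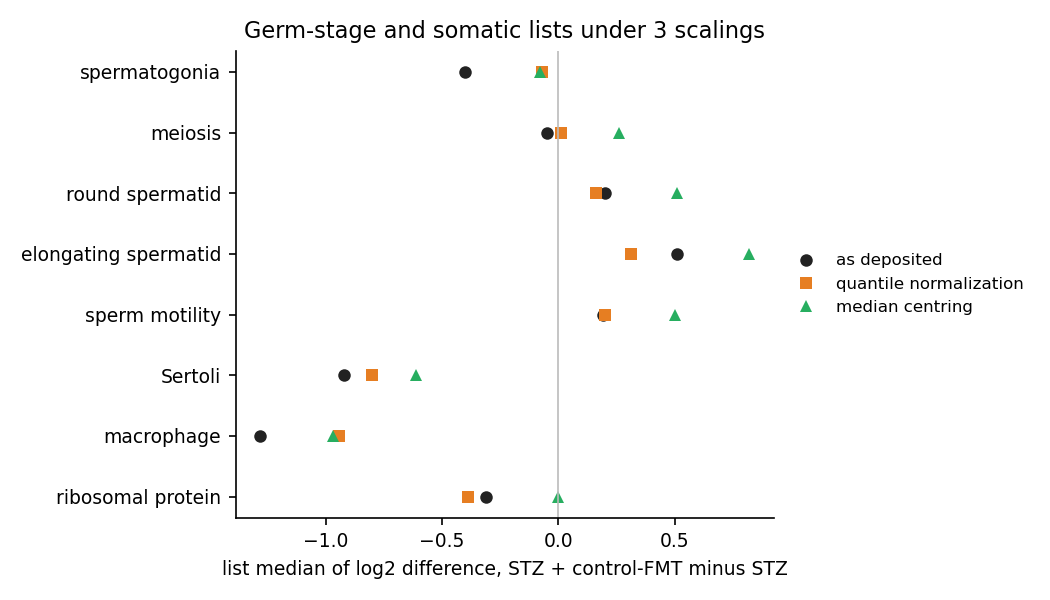
Median log2 difference between STZ + control-FMT and STZ (horizontal axis) for 8 gene lists on the deposited scale (black), after quantile normalization (orange) and after median centring (green). The 3 lists of spermatid and sperm genes lie above 0 and Sertoli and macrophage genes below it in all 3, whereas the meiotic list runs from −0.05 to 0.26.

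Most macrophage genes fell. Of 22 measured, 21 were tested, of which 16 fell and 1 rose (median −1.28 against −0.15 for all genes). Ctss, the lysosomal cathepsin of antigen-presenting cells, was at 3.02, 2.35 and 3.35 FPKM with the transplant, 12.0, 24.5 and 22.3 FPKM in STZ and 2.95, 2.63 and 3.33 FPKM in control (−2.35 from STZ, SE 0.19, adjusted p = 2.2e-07). Lyz2, the lysozyme of myeloid cells, was at 24.2, 19.5 and 25.9 FPKM against 59.99, 87.4 and 90.7 FPKM (−1.72, SE 0.18), and C1qa, a subunit of complement C1q, at 6.94, 7.91 and 8.49 FPKM against 14.0, 36.0 and 28.2 FPKM (−1.53). None of these had overlapping libraries. Adgre1, which encodes the macrophage surface marker F4/80, did not pass (−0.46). Aif1, the member that rose, was at 0.38 and is named after its value was seen. Of 13 tested genes of lipid-laden macrophages 10 fell and 0 rose (median −1.32), among them Spp1 and Gpnmb above, the lipoprotein gene Apoe (−1.75) and the lysosomal protease gene Ctsd (−1.32).

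Antigen presentation genes were lower in part. Of 10 MHC class II genes measured, 6 were tested, of which 4 fell and 0 rose (median −1.13). H2-Aa, the alpha chain of the class II molecule I-A, was at 8.91, 7.48 and 9.03 FPKM against 23.9, 57.1 and 47.9 FPKM in STZ and 5.81, 4.83 and 5.81 FPKM in control (−2.13 from STZ, SE 0.32, adjusted p = 7.1e-05). Cd74, the invariant chain, fell by 2.16 and H2-Ab1 by 1.64. H2-Eb1, the beta chain of the class II molecule I-E, was at 2.68, 1.65 and 1.12 FPKM against 2.61, 1.06 and 0.89 FPKM, with overlapping libraries (0.19, adjusted p = 0.61). H2-DMb1 fell by 0.63 on the deposited scale, a call that ended under both other scalings. Of 12 tested MHC class I genes 8 fell and 0 rose, or 5 fell under either other scaling, with H2-D1 at −1.18 and H2-K1 at −0.99.

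Promoter sequences are shown for 2 class II genes, 1 that fell and 1 that did not, and for Spp1, as the gene with the largest decrease. Class II promoters carry a conserved X-Y module, in which the Y box binds the CCAAT factor NF-Y and the X2 box binds factors of the CREB family. Each sequence is the 250 bases before the gene's start from RefSeq (GRCm38.p6), 5′ to 3′ on the strand of the gene, with matches to the Y box letters CTGATTGG and the X2 letters TGACGTCA, searched on both strands, in capitals. Positions are H2-Aa chr17:34287824-34288073 (minus strand), H2-Eb1 chr17:34305617-34305866 (plus strand) and Spp1 chr5:104434861-104435110 (plus strand, the first of 2 listed starts).
H2-Aa: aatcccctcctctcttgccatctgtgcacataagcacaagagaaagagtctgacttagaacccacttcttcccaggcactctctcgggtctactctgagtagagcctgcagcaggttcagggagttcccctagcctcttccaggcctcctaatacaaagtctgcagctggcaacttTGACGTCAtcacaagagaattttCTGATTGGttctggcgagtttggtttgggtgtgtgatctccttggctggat
H2-Eb1: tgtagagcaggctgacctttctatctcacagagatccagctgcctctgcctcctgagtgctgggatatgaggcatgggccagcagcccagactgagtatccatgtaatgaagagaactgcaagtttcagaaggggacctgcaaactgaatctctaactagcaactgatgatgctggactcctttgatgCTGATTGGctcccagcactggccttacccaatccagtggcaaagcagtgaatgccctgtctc
Spp1: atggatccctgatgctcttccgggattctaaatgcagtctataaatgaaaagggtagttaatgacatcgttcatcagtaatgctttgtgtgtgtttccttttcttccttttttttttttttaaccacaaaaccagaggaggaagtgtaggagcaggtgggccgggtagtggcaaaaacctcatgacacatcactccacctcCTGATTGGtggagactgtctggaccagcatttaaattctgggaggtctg
The Y box letters begin 51 bases before the start of H2-Aa, 62 before that of H2-Eb1 and 49 before that of Spp1, and the X2 letters begin 74 bases before the start of H2-Aa. Of 32851 promoters of the same length in the table, 3.83% hold the Y box letters and 1.55% the X2 letters on either strand. H2-Aa and Spp1 (first listed start), which fell, and H2-Eb1, which did not pass, all hold the Y box letters. The 250 bases before the second listed start of Spp1 hold 0 matches to either set of letters. A match is a description of the sequence.

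Inflammatory and stress genes were lower too. Of 22 acute phase genes measured, 14 were tested, of which 11 fell and 0 rose (median −1.56), with C4b, a complement C4 gene, at −1.90 and Apod, a lipocalin of injured tissue, at 3.34, 1.81 and 3.74 FPKM against 26.9, 12.1 and 10.4 FPKM in STZ (−2.06, SE 0.29). In control Apod was at 0.39, 0.55 and 0.69 FPKM, so its transplant libraries lay above all control libraries and below all STZ libraries, though the difference from control (1.33) did not pass (adjusted p = 0.35). Of 24 NF-kB, cytokine and chemokine genes measured, 17 were tested, of which 14 fell and 0 rose (median −1.14), including Nfkbia, the inhibitor of NF-kB that NF-kB itself induces (6.05, 6.97 and 5.85 against 11.6, 15.6 and 17.5 FPKM, −1.11), and Tnfrsf1a, a TNF receptor (−1.55). Of 21 interferon response genes measured, 14 were tested, of which 12 fell and 0 rose (median −0.87), or 8 after median centring, with Ifitm3, a membrane protein that blocks virus entry, at −1.71. Of 25 tested phagocytosis and lysosome genes 21 fell and 0 rose (median −0.79), such as Lgmn (legumain, −1.64), Ctsl (cathepsin L, −1.36) and Axl, a receptor for apoptotic cells (−1.13). Of 22 immediate early and heat shock genes 13 fell and 1 rose (median −0.55), and Hspb1, which encodes a small heat shock protein, was at 27.4, 26.0 and 27.4 FPKM against 75.4, 82.7 and 77.9 FPKM (−1.51, SE 0.09). Of 27 genes of apoptosis and p53 response 21 fell and 0 rose (median −0.57), with Gadd45a, a growth arrest gene, at −1.35. After median centring 14 apoptosis and p53 genes fell and 2 rose, as did 14 and 2 phagocytosis and lysosome genes. The counts were then 9 and 4 for immediate early and heat shock genes, and 10 and 1 for NF-kB, cytokine and chemokine genes.

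**Figure D4:**
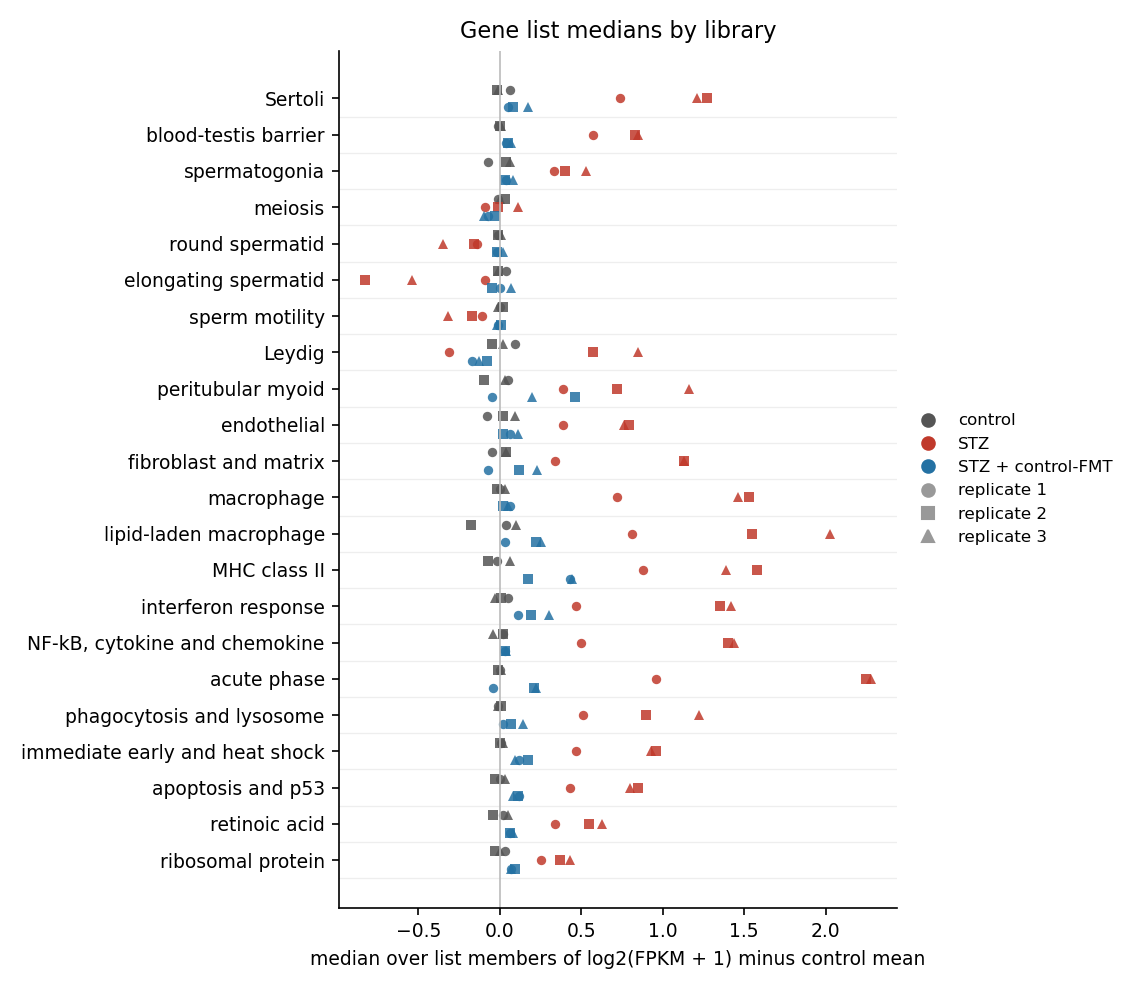
Median over each list's tested members of log2(FPKM + 1) minus the control mean (horizontal axis), by library, for control (grey), STZ (red) and STZ + control-FMT (blue). Most STZ libraries lie to the right, or to the left for spermatid lists, with replicate 1 often nearest to 0, and the blue points lie near the grey ones.

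Stromal and vascular genes were lower. Of 23 tested fibroblast and matrix genes 15 fell and 0 rose (median −0.70). Mgp, the matrix Gla protein that restrains calcification, was at 16.5, 13.7 and 14.6 FPKM against 78.1, 132.0 and 88.1 FPKM (−2.62, SE 0.22, adjusted p = 4e-07). Sparc, a collagen-binding matrix protein, fell by 1.41. Of 15 tested endothelial genes 11 fell and 0 rose (median −0.50), or 6 fell under either other scaling, and Robo4, a guidance receptor of vessels, was at −1.99. Of 11 tested peritubular myoid genes 7 fell and 1 rose (median −0.56), with Myl9 (a smooth muscle myosin light chain) at −0.88, or 4 fell without STZ replicate 3 or without STZ + control-FMT replicate 1. The count that fell was 4 after quantile normalization and 3 after median centring.

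Of 27 tested Leydig genes 10 fell and 2 rose (median −0.44), a share near that of all genes (39.9% lower), but 19 fell without STZ replicate 1, and 6 without STZ replicate 2 or replicate 3 (median −0.06 without replicate 3). Insl3, the peptide hormone of Leydig cells, was at 2397, 3020 and 3492 FPKM with the transplant and at 1574, 10967 and 11438 FPKM in STZ, so that STZ replicate 1 was below and the other 2 above all transplant libraries (−0.99, adjusted p = 0.11). Star, which brings cholesterol into mitochondria, was at 32.5, 41.6 and 35.0 FPKM against 15.5, 62.7 and 72.4 FPKM (−0.20, adjusted p = 0.69). Cyp17a1, the androgen-forming hydroxylase, was at 261.0, 253.0 and 230.0 FPKM against 79.0, 419.2 and 624.6 FPKM (−0.15, adjusted p = 0.82). For these steroidogenic genes the STZ libraries disagreed, and the transplant libraries lay between them. Cyb5a, a cofactor of that hydroxylase, fell by 0.97 and Nr5a1, the master regulator of steroidogenesis, by 1.03. Nr5a1 is on both the Leydig and the Sertoli list, so its fall cannot be assigned to either cell type.

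Counts for ribosomal and several metabolic lists depended on the scaling or on single libraries. Of 38 tested ribosomal protein genes 29 fell and 1 rose on the deposited scale (median −0.31), but 5 fell and 5 rose after median centring (median 0.00). The X-linked gene Rps4x was at 36.0, 46.3 and 49.0 FPKM against 82.4, 111.3 and 111.8 FPKM (−1.20, SE 0.16). Of 32 genes of glucose transport and glycolysis 11 rose and 8 fell (median 0.08), or 6 and 11 after quantile normalization and 20 and 8 after median centring (median 0.39). The count that rose was 6 without STZ replicate 2 or 3 or STZ + control-FMT replicate 3, and 1 with only the 6 libraries. Pfkl, the liver-type phosphofructokinase, fell by 1.39 and Ldhb by 1.12 while the sperm gene Aldoart1 rose. Of 22 tested insulin and IGF signalling genes 14 fell and 0 rose (median −0.52), among them the forkhead gene Foxo3 (−0.98) and Akt1 (−0.91). Of 30 fatty acid genes 17 fell and 1 rose (median −0.45), or 10 fell and 4 rose after median centring (median −0.14) and 10 fell with only the 6 libraries, with Cpt1a, which admits fatty acids to mitochondria, at −1.08 and Fasn, the fatty acid synthase, at −0.74. Nuclear genes of oxidative phosphorylation moved much as all genes did. On the deposited scale 2 of 37 rose and 13 fell, a share near that of all genes (39.9% lower), with a median of −0.14 against −0.15. After median centring 18 rose and 3 fell, with a median of 0.18 against 0.16 for all genes. Of 24 cholesterol synthesis genes 9 fell and 0 rose, a share near that of all genes (39.9% lower), with a median of −0.27 that was 0.02 and 0.04 under the other scalings. That count was 15 without STZ replicate 1, and 2 to 5 without any other single library of these groups. Of 21 unfolded protein response genes 16 fell and 1 rose (median −0.22, and 0.09 after centring), or 9 fell without STZ replicate 2, STZ replicate 3 or STZ + control-FMT replicate 3. Of 37 antioxidant genes 24 fell and 2 rose (median −0.49), or 11 fell and 9 rose after centring and 15 fell with only the 6 libraries, with Gsta4, a glutathione transferase, at −1.32 and Prdx2, a peroxiredoxin, at −1.24.

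Large increases were few, and the largest were in globin and epididymal genes. Hbb-bs, an adult beta-globin gene (chromosome 7, 103826523 to 103827928), was at 107.6, 68.7 and 6.28 FPKM with the transplant, 0.85, 0.44 and 5.37 FPKM in STZ and 0.29, 19.0 and 3.28 FPKM in control. Transplant replicate 3 thus lay close to the highest STZ library, and the difference was 3.89 (SE 1.08, adjusted p = 0.0073). Hbb-bt, its neighbour, was at 16.2, 8.81 and 0.75 FPKM against 0.55, 0.00 and 0.43 FPKM (2.35, SE 0.56), a call lost with only the 6 libraries. Hba-a1, an alpha-globin gene, was at 537.7, 236.9 and 277.7 FPKM against 46.8, 378.6 and 164.5 FPKM and did not pass (1.19, adjusted p = 0.07). Hbb-b1 was at 126.8, 49.2 and 123.1 FPKM against 19.3, 180.2 and 70.3 FPKM (0.53, adjusted p = 0.46). Of 14 erythrocyte genes measured, 7 were tested, of which 2 rose and 1 fell. The one that fell was Alas2, the haem synthesis enzyme of red cells (−0.35), a call lost under both other scalings and without STZ replicate 2. The beta-globin genes are near-identical copies, so reads can be split among them by the counting. Of 19 neutrophil and platelet genes measured, 2 platelet genes were tested and neither passed, though both fell without STZ replicate 1. They were Pf4, at 1.96, 2.29 and 2.30 FPKM with the transplant, and Gp1bb, at 3.81, 3.86 and 3.92 FPKM, while S100a8, an abundant neutrophil gene, was listed at 0.00 in all 3 transplant libraries. Of 16 lymphocyte genes measured 4 were tested and 1 rose, and of 13 plasma and liver genes 5 were tested and 2 fell (median −0.24, and 0.01 and 0.07 under the other scalings). The lymphocyte call ended without STZ replicate 3 and without STZ + control-FMT replicate 2 or 3.

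Defb47, a defensin gene of the epididymis (chromosome 14, 62992375 to 63001180), was at 4.75, 2.07 and 276.8 FPKM with the transplant against 0.41, 0.00 and 0.09 FPKM in STZ and 0.35, 0.09 and 0.45 FPKM in control. All 3 transplant libraries lay above the other 6, with replicate 3 far above replicates 1 and 2 (3.88, SE 1.04, adjusted p = 0.0059 by limma). These 3 libraries were enough for the gene to pass the filter on low values, and the naming rule required no overlap with STZ. The separation and the p-value of Defb47 are therefore not evidence of a group difference. The call ended with only the 6 libraries in the model. Adam7, a membrane protein of the epididymal epithelium, was at 1.10, 10.7 and 39.6 FPKM against 1.08, 0.06 and 0.04 FPKM (2.92, SE 0.85, adjusted p = 0.01). Its call ended without STZ + control-FMT replicate 3, and control replicate 3 had 8.62 FPKM. Cuzd1 was at 4.72, 48.9 and 19.1 FPKM against 4.83, 2.62 and 2.67 FPKM, with overlap (2.07, adjusted p = 0.043), and its call ended without STZ + control-FMT replicate 2 or 3 and without STZ replicate 2 or 3.

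Of the 45 epididymal genes below 1 FPKM in some library, 36 were at 1 FPKM or more in at least 1 transplant library. Of these, 21 were highest in STZ + control-FMT replicate 3, with replicate 1 next for 18 and replicate 2 next for 3, Adam7 among the latter. Control replicate 3 was at 1 FPKM or more for 2 of these 21. Gpx5, a glutathione peroxidase secreted in the initial part of the duct, was at 5.71, 0.38 and 202.9 FPKM with the transplant and at most 0.17 FPKM in STZ. Spag11b, a defensin-like sperm antigen, was at 2.26, 0.27 and 130.7 FPKM and was listed at 0.00 in all 3 STZ libraries. Lcn8, a lipocalin, was at 1.30, 0.13 and 70.2 FPKM, Defb20 at 2.90, 0.36 and 99.1 FPKM, Lcn9 at 1.12, 0.09 and 76.7 FPKM and Cst11 at 2.02, 0.44 and 77.8 FPKM. The other 15 were highest in replicate 2, and control replicate 3 was at 1 FPKM or more for 14 of them. Crisp1, a cysteine-rich protein that coats sperm, was at 0.99, 255.7 and 33.6 FPKM with the transplant, 13.0, 0.97 and 0.36 FPKM in STZ and 2.71, 0.15 and 158.8 FPKM in control (2.96 from STZ, adjusted p = 0.15). Spink8, a protease inhibitor, was at 1.6, 61.7 and 12.1 FPKM with the transplant and 1.13, 0.63 and 42.6 FPKM in control. Lcn5, a lipocalin of the duct, was listed at 0.00 in replicates 1 and 2 and at 0.97 FPKM in replicate 3.

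Of the 53 epididymal genes 22 passed the filter on low values, of which 5 rose and 2 fell (median 1.15). A member that passed only through the high libraries had to differ, so this count is not evidence of a group difference. It was 13 that rose without STZ + control-FMT replicate 1, 3 without replicate 3 or without STZ replicate 2, and 0 with only the 6 libraries. Members that every testis library expressed behaved differently: Cst12 (−1.12) and Wfdc10 (−0.73) fell, while Cst8 (0.48) and Aqp9, a water and glycerol channel (0.36, not called without STZ replicate 2), rose. Among the other tissue lists, seminal vesicle and prostate had 2 of 13 genes tested with no call, and 3 of 9 tested epithelial genes rose and 2 fell (1 rose without STZ replicate 2 or STZ + control-FMT replicate 2 or 3). How transcripts of other tissues came into these libraries was not tested. Of the 1612 genes that were higher than in STZ, 10 had a highest transplant library over 5 times the lowest.

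**Figure D5:**
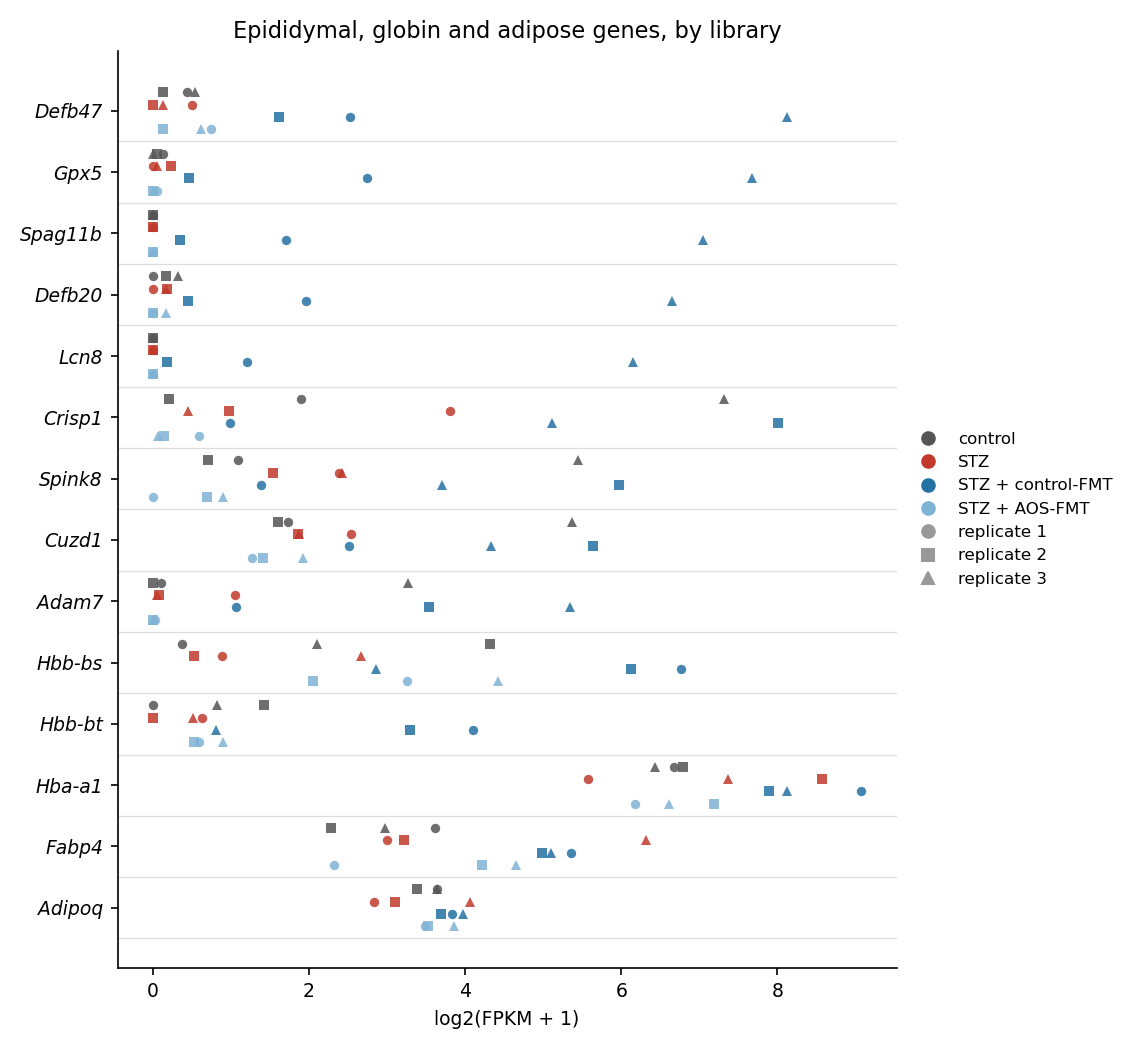
Level of 9 epididymal, 3 globin and 2 adipose genes as log2(FPKM + 1) on the horizontal axis, in each library of control (grey), STZ (red), STZ + control-FMT (dark blue) and STZ + AOS-FMT (light blue); symbols mark the replicate. Defb47 to Lcn8 are high in STZ + control-FMT replicate 3, Crisp1 to Cuzd1 in its replicate 2 and in control replicate 3, and Hbb-bs and Hbb-bt in its replicates 1 and 2.

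With STZ + control-FMT replicate 1 as the only library of its group, an alternative chosen after seeing the data, 631 genes were higher and 3908 lower than in STZ. Its epididymal sum was 36.3 FPKM against 33.4 FPKM in STZ replicate 1, but its haemoglobin sum was the highest of the 18 libraries. In this setting 24 of 31 Sertoli genes and 16 of 21 macrophage genes were lower, against 26 and 16 with all 3 libraries. The lone library is assumed there to vary like the other groups.

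Fabp4, the fatty acid binding protein of fat cells, was at 39.9, 30.6 and 33.3 FPKM with the transplant, 6.96, 8.29 and 78.5 FPKM in STZ and 11.3, 3.84 and 6.86 FPKM in control. The transplant libraries lay above all control libraries and inside the range of STZ, and neither the difference from STZ (0.97, adjusted p = 0.3) nor that from control (2.19, adjusted p = 0.69) passed. Adipoq, the adipocyte hormone gene, was at 13.2, 11.9 and 14.7 FPKM against 6.14, 7.59 and 15.7 FPKM (0.50, adjusted p = 0.068). Of 11 tested adipose genes 2 rose and 1 fell, and without STZ replicate 3 the count was 7 that rose.

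Among the other large increases, 9230104L09Rik was at 20.4, 8.32 and 115.5 FPKM with the transplant, 1.03, 0.85 and 7.55 FPKM in STZ and 11.4, 5.15 and 27.5 FPKM in control (3.17, SE 0.75, adjusted p = 0.0027). As in Defb47, replicate 3 was the highest transplant library. The rest were Gm10057 (2.85), Gm5645 (2.46), Gm8127 (1.91), the histone gene Hist1h3i (1.78) and the Y-linked gene Gm21794 (1.74), whose reads similar gene copies may share, which was not measured. Gm5645 was at 10.1, 9.87 and 10.1 FPKM with the transplant, 0.45, 2.56 and 0.55 FPKM in STZ and 6.54, 7.56 and 8.38 FPKM in control (SE 0.55, adjusted p = 0.0018). Hist1h3i was listed at 0.00 in all 3 STZ libraries and at 6.17, 0.84 and 2.10 FPKM with the transplant. Its call ended without STZ + control-FMT replicate 1 or STZ replicate 3, and that of Gm8127 without STZ replicate 3.

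The transplant labelled control was then set beside the other treated STZ groups. Against STZ + AOS-FMT no gene passed (0 of 14164, 0.0%; limma, 866 at an unadjusted p under 0.05), and for 97.3% of genes the 95% interval lay within 1 on the log2 scale. Spp1 was at 1.43, 1.71 and 1.23 FPKM in STZ + AOS-FMT (difference 0.23, 95% interval −0.38 to 0.85), and Clu at 491.8, 485.0 and 493.0 FPKM (0.05, −0.11 to 0.22). Prm2 was at 10555, 14831 and 12764 FPKM there (−0.15, −0.54 to 0.24). These intervals bound the difference between both transplants for each gene, while Crisp1 (4.44, adjusted p = 0.79) and Defb47 (3.59, adjusted p = 0.69) had wide intervals set by single libraries. Without STZ + control-FMT replicate 1, 3 genes passed upward against STZ + AOS-FMT: Akr1b7 (4.58), Krt19 (1.33) and Gm46403 (1.37). Without replicate 3 the 3 were Hbb-bt (3.03), Gm40363 (1.86) and Defb47 (1.58). The filter on low values was set on all 18 libraries, so the call of Defb47 is, as above, not evidence of a group difference.

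Against STZ + AOS 1 of 14164 genes passed (0.00706%; limma, 1167 at an unadjusted p under 0.05). This was Ckb, the brain-type creatine kinase, at 6.09, 5.53 and 5.79 FPKM with the transplant and 2.97, 2.50 and 2.26 FPKM in STZ + AOS (0.93, adjusted p = 0.026). Its libraries did not overlap, as was the case for 17.5% of all genes tested. Its level was 4.5, 6.29 and 7.59 FPKM in STZ and 3.15, 3.33 and 3.44 FPKM in control. The call ended with a replicate block and without STZ + AOS replicate 2 or replicate 3, and with only the 6 libraries of both groups in the model 28 genes were higher and 5 lower. Among the 28 were the adipose list genes Fabp4 (2.37), Cfd (2.36), Car3 (2.04) and Lpl (1.2), named after their values were seen. No adipose list gene was called against STZ + AOS in the model of all 6 groups. Against control, single libraries also decided the calls: Hbb-bt (2.95) and Defb47 (1.71) passed without STZ + control-FMT replicate 3. Akr1b7 (4.34), Krt19 (1.35) and Grb7 (0.87) passed without STZ + control-FMT replicate 1, and Klk1b22 passed downward (−2.07) without control replicate 3. The limit given for Defb47 holds here too.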

How the data were processed

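RNA sequencing values of 18 testis libraries were used, 3 in each of 6 groups, with groups taken from the labels. The authors deposited 1 table of 20985 genes without a stated unit. Its values were taken as FPKM, deposited by the authors: of 4906 low values in 528 low genes, 75.0% were whole multiples (within 0.15) of a gene's step, and across 169 genes this step fell with transcript length (Spearman rho −0.46, across genes, which are not independent replicates). RPKM would look the same. The submitters' processing notes name Bowtie 0.12.2 and mm10 without a role, and which tools counted and scaled the reads is not stated in the sources at hand. Gene-level counting of an ungapped aligner's output can lose reads across exon junctions. The table holds 26 symbols changed to dates, 11 changed to numbers and 395 genes at 0 in every library, none of them named. Of the symbols, 96.4% matched RefSeq (GRCm38.p6), the source of coordinates and promoter sequences. Gene lists give the number of members tested, that is, those that passed the filter. Some genes are on more than 1 list, such as Nr5a1 and Ptgds (Sertoli and Leydig) and Cst12 (Sertoli and epididymis).

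Tests used limma 3.58.1 (R 4.3.3) with a mean-variance trend on log2(value + 1), for genes with at least 1 in at least 3 of 18 libraries. One model held all 6 groups without a replicate block, and calls were made at a Benjamini-Hochberg adjusted p under 0.05 over all genes tested in a comparison. The script was tested on simulated data made from these libraries' means. Alternatives were a pseudocount of 0.1, no filter, a stricter filter of 5, quantile normalization, median centring, only the 2 groups, a replicate block, and each library left out. The genes named were the 10 largest increases and 10 largest decreases among called genes with non-overlapping libraries and a group mean of at least 1, up to 4 called members of each list with the smallest p, the epididymal and erythrocyte members at 1 or more, and a fixed set of markers; genes named after their values were seen, or list members that did not pass, go beyond this rule. Not every gene the rule yields is given. The members, lists and tests were chosen with earlier results of these data known.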

Additional observations from a re-analysis of the deposited data

Results flagged for a closer look

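Ckb, which encodes the brain-type creatine kinase, was the single gene called between STZ + control-FMT and STZ + AOS in the model of all 18 libraries (log2 difference 0.93, adjusted p = 0.026 by limma). It was higher in all 3 transplant libraries than in all 3 STZ + AOS libraries, and libraries of these groups did not overlap for 17.5% of all genes tested. The call ended with a replicate block and without STZ + AOS replicate 2 or replicate 3, and with only these 2 groups in the model 28 genes were higher and 5 lower. Dixon's check for an outlying library was not run, since it needs groups of at least 4.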

How the results depend on the processing

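The balance of higher and lower genes against STZ moved with the scaling and with the model, and the cause was not tested. Against 1612 higher and 5645 lower genes, quantile normalization gave 3706 and 3049, median centring 5936 and 2512, and only the 2 groups 430 and 3754. A stricter filter left 9617 genes tested and gave 1518 higher and 3495 lower, so that 69.7% of calls were lower against 77.8%. Leaving out each library gave 1055 (without STZ replicate 3) to 2071 higher and 4483 to 6598 lower. STZ + control-FMT replicate 1 as the only library of its group, added after seeing the data, gave 631 higher and 3908 lower. Under every alternative named in the methods except the stricter filter, 368 higher and 2297 lower genes were called. Labels give the groups the same replicate numbers, but the deviations of same-numbered STZ + control-FMT and STZ libraries correlated at only 0.023, 0.025 and 0.029, so the numbers were not used as pairs. Among the STZ libraries each STZ + control-FMT library correlated best with its own number, a hint from the data and not the design. Against control this did not hold: STZ + control-FMT replicate 1 correlated best with control replicate 2 (0.226) and replicate 2 with control replicate 3 (0.333). The replicate block gave 1572 higher and 5596 lower genes.

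Against control, no filter gave 1 lower gene (Gm4705), leaving out libraries gave 0 to 3 higher and 0 to 1 lower, and replicate 1 alone 2 higher and 1 lower. Against STZ + AOS-FMT, no filter gave 1 higher gene (Chad), leaving out libraries 0 to 3 higher, and replicate 1 alone 2 higher and 1 lower. Against STZ + AOS, where 1 gene was higher, no filter gave 2, only the 2 groups 28 higher and 5 lower, the replicate block 0, leaving out libraries 0 to 3 higher, and replicate 1 alone 3 higher and 1 lower.

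Of 1550 values of the 112 genes named under these alternatives, 1430 kept their direction and their side of the threshold, 58 lost a call, 28 gained one and 34 changed sign, all against STZ. After median centring the sign changed for Cst9 (0.03), Ptgds (0.24), Sycp3 (0.10), Star (0.11), Cyp17a1 (0.16), Ckb (0.27), Klk1b24 (0.13) and Klk1b21 (0.23), and after quantile normalization for Ckb (0.31), Gp1bb (0.0), Klk1b24 (0.14) and Klk1b21 (0.21, also 0.31 with a pseudocount of 0.1). With each library left out in turn, differences that changed sign ran from −0.27 to 0.06 for Ptgds, −0.13 to 0.52 for Krt18, −0.03 to 0.48 for H2-Eb1, −0.88 to 0.20 for Star, −1.04 to 0.44 for Cyp17a1, −0.29 to 1.29 for Hbb-b1, −0.22 to 0.10 for Ckb, −0.85 to 0.44 for Klk1b24 and −0.87 to 0.73 for Klk1b21. With replicate 1 alone in its group, Crisp1 (−0.75), Spink8 (−0.74), Krt18 (−0.73), Akr1b7 (−0.40), Krt19 (−0.02) and Ckb (0.02) did so. The read depth is unknown, so what counting error adds at low FPKM could not be computed.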

Other observations

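Genes of the sex chromosomes were described separately, by position only. Of 627 X-linked genes tested, 50.1% were lower with the transplant than in STZ, against 40.1% of 13073 autosomal genes, and their median log2 differences were −0.32 and −0.15. After median centring the medians were −0.01 and 0.16. Of 72 Y-linked genes 12.5% were lower (median 0.09). Many genes of the X and Y chromosomes are silenced in meiosis and partly active again in spermatids, and several are multicopy.

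Of 14 tissue kallikrein genes, a cluster of similar secreted proteases, 12 were tested and 0 passed against control (list median −0.31). Without control replicate 3, Klk1b22 was called lower than control (−2.07). Against STZ 1 of the 12 rose (Klk1b8) and 0 fell (median 0.13), where 11.4% of all genes rose. The count that rose was 3 under either other scaling and 0 with only the 6 libraries. Their summed level was 122.5, 112.7 and 157.6 FPKM with the transplant and 221.6, 192.7 and 151.1 FPKM in control, with overlap. The 2 members with the largest differences from control are named after their values were seen. Klk1b24 was at 3.27, 2.40 and 3.12 FPKM with the transplant, 0.78, 3.66 and 9.59 FPKM in STZ and 29.6, 23.4 and 13.7 FPKM in control. Klk1b21 was at 2.41, 1.44 and 3.56 FPKM against 0.19, 2.45 and 9.86 FPKM, and 26.5, 21.6 and 16.0 FPKM in control. The difference of the transplant group from control was −2.51 for Klk1b24 and −2.71 for Klk1b21, and neither passed (adjusted p = 0.24 and 0.34 by limma), although no transplant library reached the control range. In STZ + AOS-FMT Klk1b24 was at 4.42, 2.49 and 1.06 FPKM. Reads of these paralogs are hard to assign.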
